A study of Drosophila melanogaster with 30 samples.

Results

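The mitochondrial ribosomal proteins are the proteins of the ribosome inside mitochondria, here the fly genes whose symbols begin with mRpL (large subunit) or mRpS (small subunit). They were taken from the authors' 2 deposited tables of comparisons by symbol. Either table held 42 probe sets of 41 such genes, 28 of the large and 13 of the small subunit, among 3556 probe sets and 3153 named genes in all. The subunit was read from the letter of the symbol alone, and the place of each protein in the ribosome was not checked. RefSeq names 73 genes of the family in the fly, so 56.2% of the family was listed and the other 32, mRpL1, mRpL10 and mRpS2 among them, were not listed and are not described. Messenger RNA of prothoracic leg imaginal discs, the larval sheets of epithelium that form the first pair of legs, was measured on 30 Affymetrix arrays in 10 groups of 3 biological replicates. Every group came from male (w/Y) larvae of 100 h that carried AyGAL4, UAS-GFP/+ together with puc[E69-I]-GAL4/UAS-flp. In such larvae a cell in which puc, a phosphatase gene under the control of JNK signalling, is switched on becomes permanently marked with GFP, along with its descendants. In 4 groups the disc was cut into the anterior 1/4 or the posterior 3/4, the fragment was kept inside the abdomen of a female fly for 12 or 24 h, and its GFP-positive region was taken. In 4 more groups whole discs were kept in the abdomen as long without a cut, and in 2 groups discs were not cultured (0 h). The matching anterior or posterior region was taken from them. No other samples were taken by their GFP, so the cut and this isolation cannot be told apart.

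Mitochondrial ribosomes translate the few proteins that mitochondrial DNA encodes, nearly all of them core subunits of the respiratory chain complexes and the ATP synthase. Their RNA parts come from mitochondrial DNA, but all of their proteins are encoded in the nucleus, made in the cytosol and imported. Many are named after a bacterial relative, and others belong to mitochondria only. In growing fly tissue the family is known from mRpL12, which is needed for the growth that Cyclin D and Cdk4 drive.

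Each value below is a log2 expression value of the authors' series matrix, in which every probe set is centred on its own mean over the 30 arrays. A value of 0 is that mean, so the matrix gives no absolute level, and levels of different genes cannot be ranked. Differences are in log2 units, and 95% intervals and p-values are from a limma fit over all 30 arrays and 18769 probe sets, adjusted by the Benjamini-Hochberg method in each comparison. A gene was counted as higher or lower where the adjusted p was under 0.05. The median standard error of a difference between 2 groups was 0.117 over all probe sets, and 3 arrays per group limit the precision. The authors listed probe sets whose adjusted p over all 4 cut comparisons (1480 probe sets, 7.81% of the array) or over all 4 culture comparisons (3018, 15.9%) was under 0.001. The members were therefore selected by these same comparisons, and the counts of members in them are a description. In these bulk samples fewer cells of a type and less RNA per cell cannot be told apart.

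Marker genes of other cells also differed between the groups. Of 12 hemocyte (blood cell) markers 7 were listed, and their mean value per group was 1.00 in cut anterior regions at 24 h and 0.64 in cut posterior regions, against 0.18 and -0.099 in the uncut regions and -0.82 and -0.65 in uncultured regions. At 12 h it was 0.018 and 0.089 in cut regions, against -0.089 and -0.27 in uncut regions. The markers did not go one way there: of the 7, 1 was called higher and 3 lower in cut regions at 12 h anterior. At 12 h posterior 1 was higher and 0 lower. After 12 h of anterior culture 4 were higher and 0 lower. Of 20 leg disc genes 6 were listed, all of them region-specific (B-H2, H15, Scr, ap, bab1 and bab2). Of these, 6 were lower in cut than in uncut anterior regions at 12 h (median -1.39), 3 at 24 h anterior (-0.84) and 5 at 24 h posterior (-0.89). Their group means lay between -1.43 in cut anterior regions at 12 h and 0.99 in uncultured posterior regions. Centred values cannot show whether a marker was expressed, so the tissue label could not be checked against levels. Group means lay between -0.41 and 0.24 for 6 of 14 myoblast and muscle markers, between -1.29 and 1.16 for 4 of 8 neuron and glia markers, and between -0.51 and 0.28 for 4 of 7 tracheal markers. Of 10 fat body genes 1 (Yp1, between -2.59 and 2.02) and of 9 ovary genes none was listed. Of the 4 neuron and glia markers, 4 were lower in cut than in uncut regions at 12 h anterior (median -1.03), 2 at 24 h anterior (-0.80) and 3 at 24 h posterior (-1.17), and 3 were higher after 24 h of culture in the anterior region (0.79) and 2 in the posterior (1.08). Of the 6 myoblast and muscle markers, 4 were lower and 1 higher in cut regions at 12 h anterior (median -0.70), 3 were lower at 24 h posterior (-0.40), and 5 were higher after 24 h of posterior culture (0.57). Of the 7 hemocyte markers, 4 and 5 were higher in cut regions at 24 h, anterior and posterior, and 6 and 2 after 24 h of culture. In cut regions 3.15%, 2.01%, 5.59% and 4.81% of all probe sets were higher, anterior and posterior at 12 h and then at 24 h. In the same order 5.69%, 3.04%, 3.03% and 5.04% were lower. After culture 9.51%, 10.5%, 14% and 14.6% were higher and 6.29%, 9.76%, 18.1% and 9.56% lower. Of the 6 leg disc genes 3 were lower and 0 higher after 12 h of posterior culture. At both times 3 of the 4 tracheal markers were higher after posterior culture, and 0 lower. The part of these cells in the results below was not tested.

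Averaged over genes, the listed members other than mRpS28 were highest in uncultured discs, intermediate in cut and cultured regions, and lowest in uncut cultured regions. The mean of the other 40 genes, a set without mRpS28 that was formed after the values were seen, was 0.16 ± 0.12 in cut anterior regions at 12 h and -0.053 ± 0.14 in uncut ones (SD, n = 3 each). At 24 h it was 0.097 ± 0.095 in cut and -0.47 ± 0.0050 in uncut anterior regions, and in uncultured anterior regions it was 0.39 ± 0.17. In the posterior region it was 0.053 ± 0.10 in cut and -0.27 ± 0.049 in uncut samples at 12 h, and 0.083 ± 0.14 in cut and -0.31 ± 0.029 in uncut samples at 24 h, with 0.33 ± 0.030 in uncultured ones. All 3 cut arrays lay above all 3 uncut arrays at 24 h in both regions and at 12 h in the posterior region, and all uncultured arrays lay above all uncut arrays of their region at 24 h. At 12 h the anterior cut and uncut arrays overlapped, since uncut replicate 1 had a mean of 0.11. Among the uncultured anterior arrays replicate 2, at 0.1892, lay below the other two, at 0.48 and 0.50. It also lay below cut anterior replicate 1 at 12 h (0.27) and, narrowly, cut anterior replicate 2 at 24 h (0.1897). Cut and uncultured anterior arrays therefore overlapped at both times. In the posterior region all cut arrays lay below all uncultured ones.

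**Figure D1:**
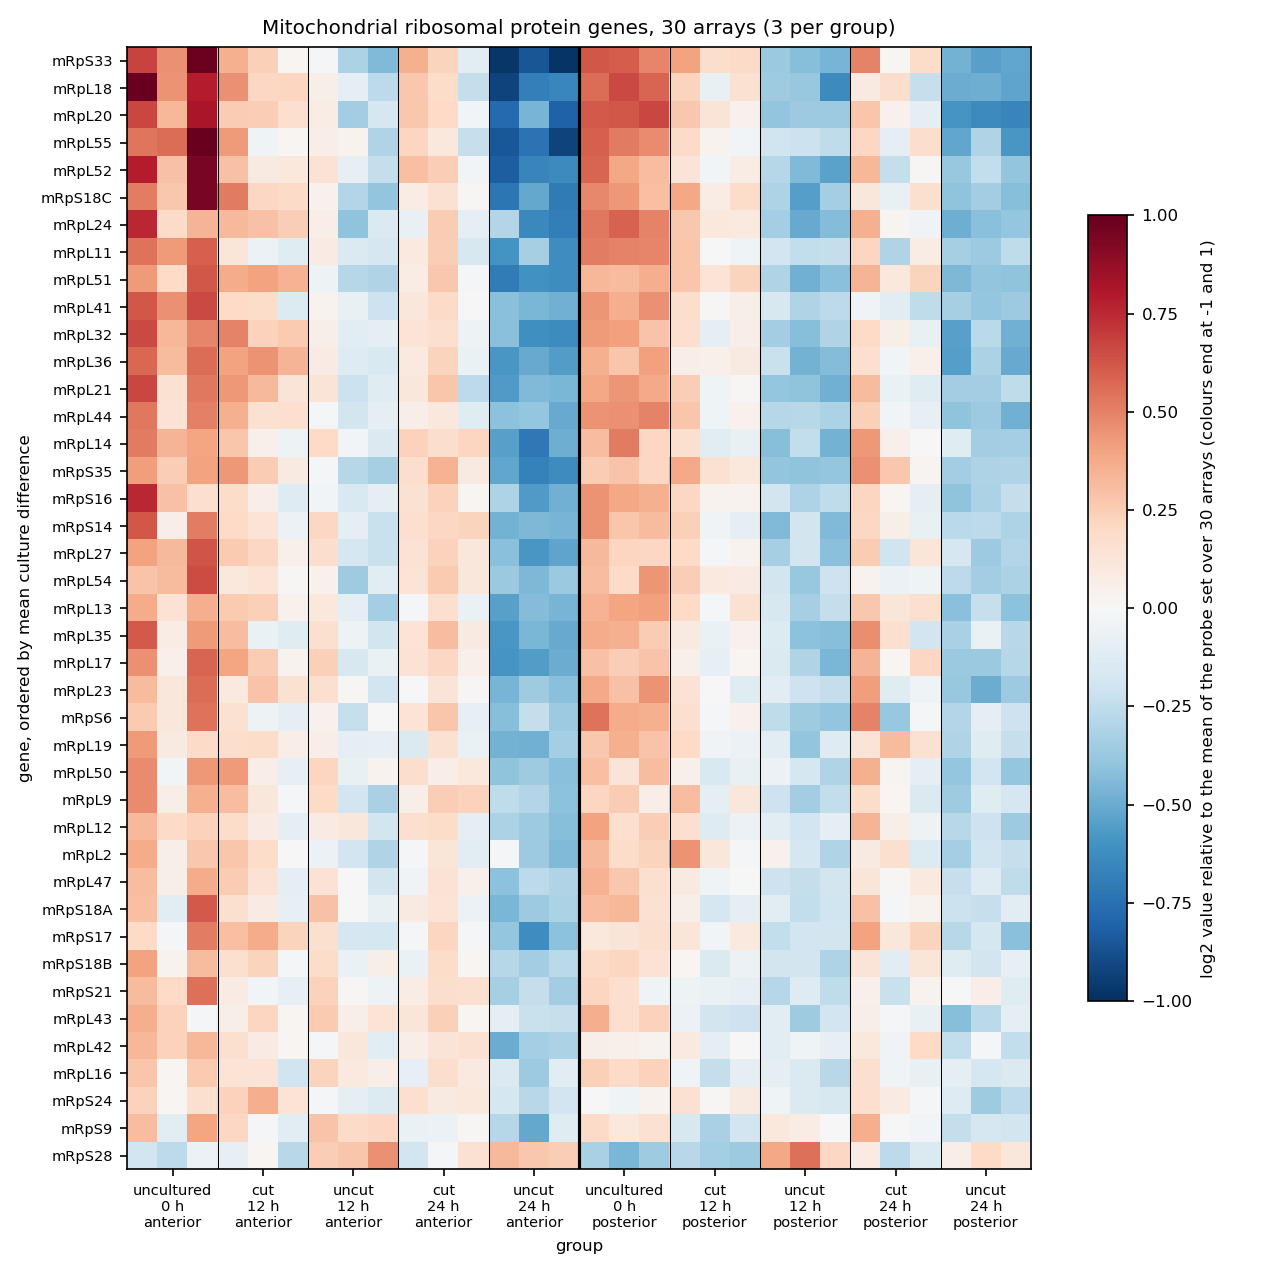
Log2 value of each of the 41 genes (rows) on each of the 30 arrays (columns, 3 per group; anterior groups left, posterior groups right), relative to the mean of the probe set over all arrays. Red is above and blue below that mean, and colours end at -1 and 1. Rows run from the gene with the lowest mean difference between uncut cultured and uncultured regions (mRpS33) to the one with the highest (mRpS28), the one row with the opposite pattern.

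**Figure D2:**
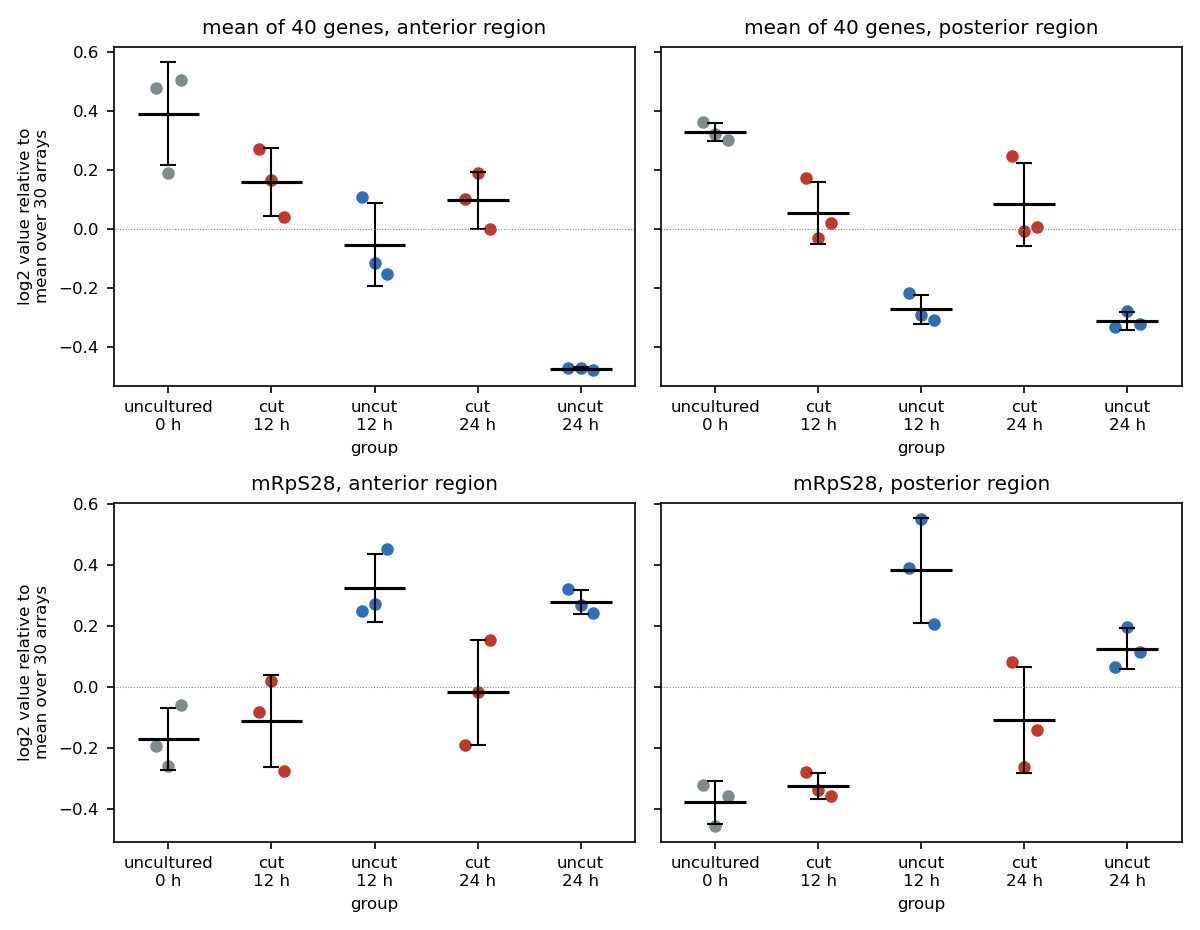
Mean log2 value of 40 family genes (top) and of mRpS28 (bottom) on each array, by group, for the anterior (left) and posterior region (right). Points are arrays, lines group means and bars SDs (n = 3). The 40 genes are lowest in uncut anterior regions at 24 h, at -0.47, where mRpS28 is above its own mean on all 3 arrays.

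Over the 10 group means, every gene but mRpS28 correlated positively with the mean of the other genes, from which mRpS28 was always left out. Pearson's r was between 0.63 for mRpS9 and 0.99 for mRpL47, and it was -0.78 for mRpS28. These are descriptions over 10 points that share arrays, and no p-value is given. The members were also selected by comparisons among these same groups. In the clusters given in the authors' deposited table of cut comparisons, 25 of the 26 members listed there were in cluster II, which held 39.9% of that table, and mRpS28 was in cluster IV, which held 43%.

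The first comparison asks how cut regions differed from uncut regions cultured as long. Listed family genes were higher in the cut regions, in the largest number at 24 h in the anterior region, where 35 of 41 genes were higher and 0 lower. The shares of all probe sets called there were 5.59% higher and 3.03% lower. In the posterior region at 24 h, 22 of 41 were higher and 0 lower, against 4.81% and 5.04% of all probe sets. At 12 h, 9 of 41 were higher in the anterior region (3.15% of all probe sets) and 15 of 41 in the posterior region (2.01%), and 1 gene, mRpS28, was lower in each (5.69% and 3.04% of all probe sets called lower). The median difference of the 41 genes was 0.20 at 12 h and 0.54 at 24 h in the anterior region, and 0.34 at 12 h and 0.37 at 24 h in the posterior, while that of all probe sets lay between -0.0019 and 0.017. All 3 cut arrays lay above all 3 uncut arrays for 15 genes at 12 h and 39 at 24 h in the anterior region, and for 31 and 32 in the posterior region, against 11.6% to 14.2% of all probe sets. The 0 lower calls at 24 h compare with 1 gene lower at an unadjusted p under 0.05 in each region, mRpS28.

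Part of these counts did not hold with 1 array left out, which also makes its group smaller. At 12 h anterior the 9 genes became 4 without cut replicate 1, 5 without cut replicate 2, and 4 without uncut replicate 2 or 3. At 12 h posterior the 15 became 4 without cut replicate 1, 8 without cut replicate 3, 6 without uncut replicate 2 and 8 without uncut replicate 3. At 24 h posterior the 22 became 12 without cut replicate 1 and 14 without uncut replicate 1 or 3. At 24 h anterior the count stayed between 26 and 37 whichever array was left out. Of the calls of single genes in the cut comparisons, 3 of 10 at 12 h anterior (mRpL36, mRpL51 and mRpS35), 5 of 16 at 12 h posterior (mRpL36, mRpL51, mRpS28, mRpS33 and mRpS35), 25 of 35 at 24 h anterior and 11 of 22 at 24 h posterior held whichever array was left out. At 24 h anterior those of mRpL9, mRpL12, mRpL19, mRpL21, mRpL23, mRpL24, mRpL47, mRpL50, mRpS18A and mRpS18B did not, and at 24 h posterior those of mRpL12, mRpL14, mRpL18, mRpL19, mRpL23, mRpL24, mRpL42, mRpL50, mRpL55, mRpS16 and mRpS18C did not.

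The 15 genes listed in the culture table alone had missed the authors' threshold for the cut comparisons, and the comparison that selected them uses the same uncut arrays, so their counts are a description as well. Of these, 10 were higher in cut regions at 24 h anterior (5.59% of all probe sets) and 3 at 24 h posterior (4.81%). At 12 h 0 were higher in either region (1 anterior and 6 posterior at an unadjusted p under 0.05), where 3.15% and 2.01% of all probe sets were. None was lower in any of the 4 comparisons (at an unadjusted p under 0.05, mRpS9 at 12 h posterior). Just outside the authors' threshold for the table of cut comparisons, in this refit of their test, were mRpL23 (adjusted p = 0.00104), mRpL11 (0.00116) and mRpL35 (0.00141), and just inside it were mRpL19 (0.000476) and mRpL21 (0.000467). The member farthest outside was mRpL16 (0.184).

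**Figure D3:**
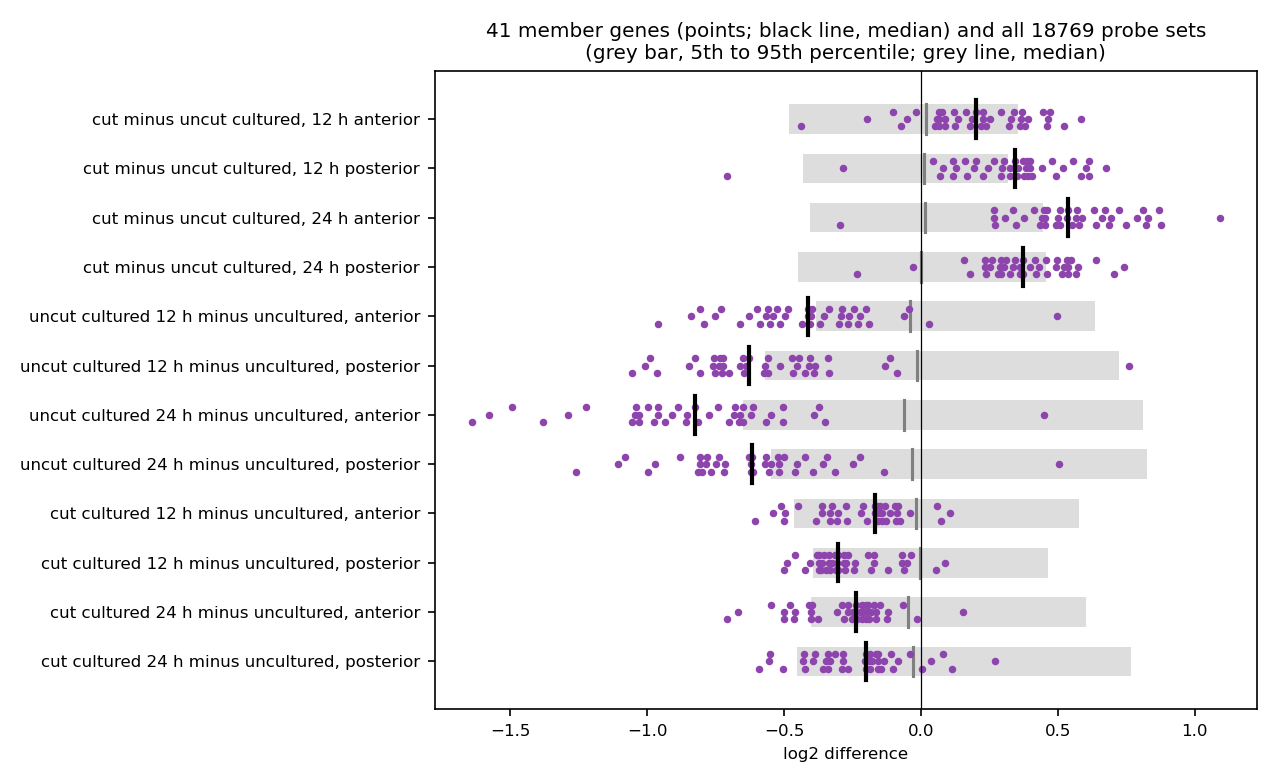
Log2 differences of the 41 genes (points, black line their median) in 12 comparisons, beside those of all 18769 probe sets (grey bar from the 5th to the 95th percentile, grey line the median). In uncut cultured minus uncultured regions the medians of the genes lie between -0.83 and -0.41, in cut minus uncut cultured regions between 0.20 and 0.54, and in cut cultured minus uncultured regions between -0.30 and -0.17.

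The second comparison asks how uncut disc regions cultured in the abdomen differed from uncultured ones. Culture in the abdomen and the 12 or 24 h that passed cannot be told apart, since no group was left in the larva as long. Most of the listed genes, 40 of which the authors listed for their culture effect, were lower after culture. In the anterior region 26 of 41 genes were lower at 12 h (6.29% of all probe sets called lower) and 40 at 24 h (18.1%). In the posterior region 37 were lower at 12 h (9.76%) and 39 at 24 h (9.56%). One gene, mRpS28, was higher in all 4 comparisons, in which 9.51%, 10.5%, 14% and 14.6% of all probe sets were called higher for the anterior and posterior regions at 12 h and then at 24 h. The median difference was -0.41 at 12 h and -0.83 at 24 h in the anterior region, and -0.63 and -0.62 in the posterior region, against medians of all probe sets between -0.061 and -0.016. All 3 cultured arrays lay below all 3 uncultured arrays for 26 genes at 12 h anterior, 40 at 12 h posterior, 40 at 24 h anterior and 39 at 24 h posterior, against 12.1% to 22.7% of all probe sets. With any single array left out, the lower genes numbered 18 to 35 at 12 h anterior, 32 to 35 at 12 h posterior, 40 at 24 h anterior and 35 or 36 at 24 h posterior. The calls of 18 of 27, 32 of 38, 41 of 41 and 35 of 40 genes held whichever array was left out, in that order. Those lost at 24 h posterior were mRpL9, mRpL42, mRpS9, mRpS18B and mRpS24.

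**Figure D4:**
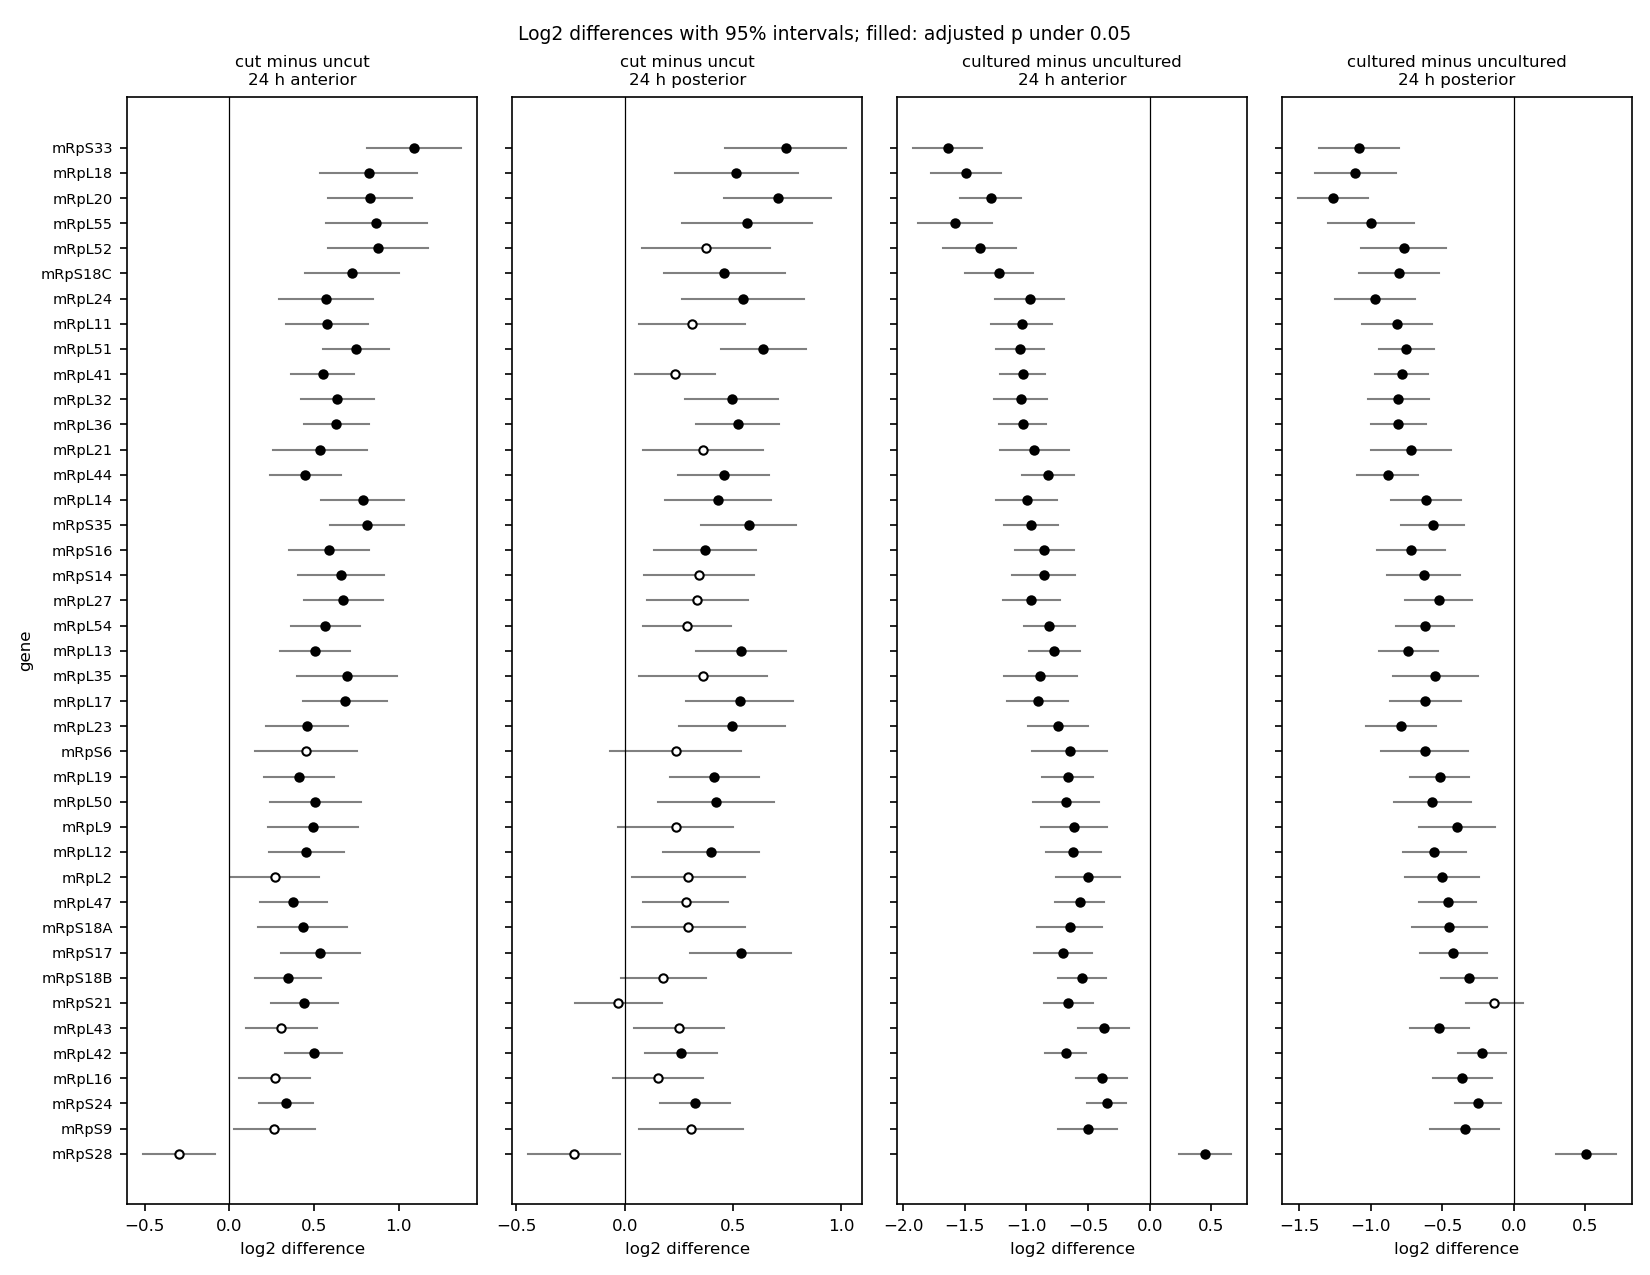
Log2 differences at 24 h with 95% intervals for the 41 genes (rows), for cut minus uncut cultured regions (left pair of panels) and uncut cultured minus uncultured regions (right pair), anterior and posterior. Filled points have an adjusted p under 0.05. The panels have their own x axes. In the first panel 35 points are filled, all to the right of 0, and in the third all 41 are, with mRpS28 alone to the right.

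Cut regions were also set against uncultured regions, a comparison added after the data had been seen. No gene was higher in cut regions in any of the 4 comparisons (1 at an unadjusted p under 0.05, mRpS28 at 24 h posterior), where 7.28%, 4.2%, 7.56% and 11.2% of all probe sets were, for the anterior and posterior regions at 12 h and then at 24 h. Lower in cut regions were 10 genes at 12 h anterior (7.56% of all probe sets), 9 at 12 h posterior (3.95%), 13 at 24 h anterior (5.53%) and 11 at 24 h posterior (7.22%). The median difference was -0.17 and -0.30 at 12 h and -0.24 and -0.20 at 24 h, anterior and posterior. These counts rest on few arrays. At 12 h anterior the 10 became 3 without cut replicate 3 or uncultured replicate 3, and 6 without cut replicate 2 or uncultured replicate 1. At 12 h posterior the 9 became 0 without cut replicate 3, 2 without cut replicate 2, 1 without uncultured replicate 1, 3 without uncultured replicate 2 and 2 without uncultured replicate 3. At 24 h anterior the 13 became 3 without cut replicate 3, 8, 22 and 7 without uncultured replicates 1, 2 and 3. At 24 h posterior the 11 became 5 without cut replicate 2 or 3, and 5, 7 and 6 without uncultured replicates 1, 2 and 3. Each of these comparisons shares arrays with the ones above, so they are 3 views of the same groups.

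The 2 culture times were also compared. In uncut anterior regions 19 of 41 genes were lower at 24 h than at 12 h (1.72% of all probe sets, with 0.453% higher), with a median of -0.40, and all 41 had a negative difference. In uncut posterior regions 0 genes passed in either direction (at an unadjusted p under 0.05, 1 higher and 3 lower), with a median of -0.050, where 0.41% of all probe sets were called higher and 0.213% lower. The 19 became 0 without uncut 12 h anterior replicate 1, 11 without replicate 2 of that group, and 6, 10 and 12 without replicates 1, 2 and 3 of the 24 h group. Tested directly and added after the data had been seen, the posterior minus anterior difference of this change passed for 0 genes (23 at an unadjusted p under 0.05, all positive; 0.0746% of all probe sets higher and 0.0213% lower), with a median of 0.38, so a difference between the regions was not established. The cut effect was larger at 24 h than at 12 h in the anterior region for 2 genes, mRpL14 and mRpS21 (24 at an unadjusted p under 0.05, 1.6% of all probe sets called higher and 0.549% lower), and in the posterior region for 0 (2 at an unadjusted p under 0.05, with 0.389% of all probe sets called higher and 0.0852% lower).

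No difference between the 2 regions was detected. In uncultured discs 0 of 41 genes differed between posterior and anterior regions (2 lower in the posterior at an unadjusted p under 0.05; 0.506% and 0.208% of all probe sets called higher and lower), with a median of -0.066. The cut effect differed between regions for 0 genes at 12 h (0 also at an unadjusted p under 0.05) and for 0 at 24 h (6 smaller in the posterior at an unadjusted p under 0.05), where 0.101% and 0.107% of all probe sets passed as larger and smaller at 12 h, and 0.0533% and 0.0693% at 24 h. A p that misses the threshold does not show equal effects: at 24 h the posterior minus anterior difference had a median of -0.15.

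In both subunits, assigned by the letter of the symbol, most listed genes were higher in cut regions at 24 h anterior and lower after culture. At 24 h anterior 25 of 28 large and 10 of 13 small subunit genes were higher in cut regions, with medians of 0.56 and 0.45, and at 24 h posterior 16 of 28 and 6 of 13 were, with medians of 0.41 and 0.33. After 24 h of culture 28 of 28 large and 12 of 13 small subunit genes were lower in uncut anterior regions, with medians of -0.90 and -0.66, and 28 and 11 in posterior regions, with medians of -0.67 and -0.45. Of all probe sets 5.59% and 4.81% were called higher in cut regions at 24 h, anterior and posterior. After 24 h of culture 18.1% and 9.56% were called lower. The members were selected by these comparisons, so the counts are a description. Split by name, 23 of 27 genes numbered within the bacterial range and 12 of 14 with higher numbers were higher in cut regions at 24 h anterior, with medians of 0.54 and 0.53. The difference between such groups was not tested.

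Among the 25 members listed in both tables, 19 were not among those with the largest or smallest mean differences. For these, the anterior values at 24 h and in uncultured discs are given one by one below, and the other arrays as ranges here and in the heat map of all arrays. Their group means lay between 0.040 and 0.40 in cut and between -0.22 and 0.0066 in uncut anterior regions at 12 h. In the posterior region they lay between -0.0066 and 0.21 in cut and between -0.42 and -0.080 in uncut samples at 12 h, and between -0.13 and 0.24 in cut and between -0.47 and -0.17 in uncut samples at 24 h, with 0.051 to 0.54 in uncultured ones. All 3 cut arrays lay above all 3 uncut arrays for 8 of the 19 at 12 h anterior, for 18 at 12 h posterior (not mRpL42), for 19 at 24 h anterior and for 17 at 24 h posterior (not mRpL27 and mRpL42). Of all probe sets 11.9%, 11.7%, 14.2% and 11.6% did so, in that order. The 19 were selected by these same comparisons, so their counts are a description.

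mRpL11 and mRpL12, listed for culture only, belong to the stalk region, where translation factors bind. The values of mRpL12 in the anterior region were 0.17, 0.19 and -0.093 in cut regions at 24 h, -0.31, -0.36 and -0.43 in uncut regions at 24 h and 0.33, 0.20 and 0.23 in uncultured regions. The uncut arrays were the lowest 3 and did not overlap the others. Its cut effect at 24 h was 0.45 (0.23 to 0.68) anterior and 0.40 (0.18 to 0.62) posterior, with limma adjusted p of 0.00751 and 0.0166. For mRpL11 the cut effect at 24 h anterior was 0.58 (adjusted p 0.00240), and culture for 24 h gave -1.04 anterior and -0.81 posterior.

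The bacterial relatives of mRpL2, mRpL16 and mRpL27 lie at or near the peptidyl transferase centre, where peptide bonds form. These 3 genes differed in size. mRpL27 was listed in both tables, with 0.14, 0.23 and 0.11 in cut anterior regions at 24 h, -0.42, -0.58 and -0.53 in uncut ones and 0.40, 0.33 and 0.63 in uncultured ones. The 3 groups did not overlap, with the uncut arrays lowest. Its cut effect was 0.67 at 24 h anterior (adjusted p 0.000307) and 0.33 at 24 h posterior (adjusted p 0.0605, not past the threshold). For mRpL2 no cut comparison passed (0.27 to 0.34), and culture gave -0.50 anterior and -0.50 posterior at 24 h (adjusted p 0.00309 and 0.00390).

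mRpL16 had the smallest mean cut effect of the 28 listed large subunit genes. In the anterior region its values were 0.14, 0.14 and -0.20 in cut and 0.22, 0.097 and 0.055 in uncut samples at 12 h, -0.080, 0.18 and 0.096 in cut and -0.14, -0.36 and -0.11 in uncut samples at 24 h, and 0.28, 0.016 and 0.26 in uncultured ones. Its posterior values were -0.039, -0.24 and -0.096 in cut and -0.092, -0.14 and -0.28 in uncut samples at 12 h, 0.16, -0.032 and -0.074 in cut and -0.095, -0.17 and -0.15 in uncut samples at 24 h, and 0.24, 0.19 and 0.23 in uncultured ones. Cut and uncut arrays overlapped at 12 h in both regions, and at 24 h the cut ones lay above the uncut ones in both. Its 4 cut effects lay between -0.10 and 0.27 (adjusted p at least 0.110), and its culture effect was -0.39 (-0.60 to -0.18) at 24 h anterior, with an adjusted p of 0.00396.

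mRpL23, mRpL24 and mRpL17 have bacterial relatives around the exit of the tunnel through which the new chain leaves. mRpL24 was higher in cut regions in all 4 comparisons, by 0.45, 0.58, 0.57 and 0.55 for the anterior and posterior regions at 12 h and then at 24 h (adjusted p from 0.00775 to 0.0385). Its values at 24 h anterior were -0.075, 0.26 and -0.10 in cut, -0.29, -0.65 and -0.69 in uncut and 0.76, 0.19 and 0.34 in uncultured regions, where replicate 1 stood above the other two. mRpL17 had 0.14, 0.21 and 0.055 in cut, -0.59, -0.56 and -0.50 in uncut and 0.45, 0.047 and 0.58 in uncultured anterior regions. Its 3 uncut arrays lay close together and below the rest. mRpL23, listed for culture only, was higher in cut regions at 24 h by 0.46 anterior and 0.50 posterior (adjusted p 0.0138 and 0.00686).

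mRpL18 and mRpL20 had the largest culture effects of the 28 listed large subunit genes after averaging the 4 comparisons. The bacterial L18 binds the small 5S ribosomal RNA, and the bacterial L20 is an early assembly protein. In the anterior region mRpL20 had 0.25, 0.25 and 0.16 in cut and 0.073, -0.34 and -0.17 in uncut samples at 12 h, 0.27, 0.20 and -0.025 in cut and -0.77, -0.46 and -0.81 in uncut samples at 24 h, and 0.67, 0.33 and 0.82 in uncultured samples. In the posterior region it had 0.27, 0.13 and 0.043 in cut and -0.39, -0.37 and -0.36 in uncut samples at 12 h, 0.28, 0.042 and -0.089 in cut and -0.59, -0.63 and -0.66 in uncut samples at 24 h, and 0.62, 0.62 and 0.67 in uncultured samples. In both regions and at both times the cut arrays lay between the uncut and the uncultured ones without overlap. The culture effect was -1.29 (-1.54 to -1.04) anterior and -1.26 (-1.51 to -1.02) posterior at 24 h, which is 0.409 and 0.417 times the uncultured value (adjusted p 7.72e-09 and 1.59e-08). Cut regions were 0.83 and 0.71 above uncut ones at 24 h (adjusted p 7.30e-05 and 0.000345) and still below uncultured ones, with differences of -0.46 and -0.56 (adjusted p 0.00994 and 0.00128). At 12 h the cut effect was 0.37 anterior, past the threshold only without uncut replicate 1 (0.48), and 0.52 posterior, past it except without cut replicate 1 (0.46).

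mRpL18 followed the same course. Its anterior values were 0.45, 0.21 and 0.21 in cut and 0.059, -0.10 and -0.26 in uncut samples at 12 h, 0.27, 0.18 and -0.24 in cut and -0.92, -0.68 and -0.65 in uncut samples at 24 h, and 0.99, 0.45 and 0.79 in uncultured samples. Posterior values were 0.22, -0.071 and 0.15 in cut and -0.35, -0.38 and -0.64 in uncut samples at 12 h, 0.091, 0.17 and -0.23 in cut and -0.50, -0.49 and -0.53 in uncut samples at 24 h, and 0.56, 0.66 and 0.59 in uncultured samples. Cut and uncut arrays did not overlap in any of the 4 comparisons. Culture for 24 h gave -1.49 anterior (0.355 times the uncultured value, adjusted p 8.01e-09) and -1.11 posterior (adjusted p 1.11e-06). Its cut effect was 0.39, 0.56, 0.82 and 0.52 in anterior and posterior regions at 12 h and then at 24 h, the first not past the threshold (adjusted p 0.0812). The call at 12 h posterior was lost without cut replicate 1 (0.50), cut replicate 3 (0.53) or uncut replicate 3 (0.47). The call at 24 h posterior was lost without cut replicate 1 (0.48) or 2 (0.43), or uncut replicate 1 (0.52) or 3 (0.50). In RefSeq mRpL18 overlaps ox, a subunit gene of respiratory complex III.

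Among the other members with bacterial names, mRpL14, whose bacterial relative faces the small subunit, had 0.23, 0.18 and 0.21 in cut anterior regions at 24 h, -0.54, -0.71 and -0.49 in uncut and 0.52, 0.34 and 0.39 in uncultured ones. Its cut effect was 0.79 there (adjusted p 0.000115) and 0.086 at 12 h anterior. mRpL13 and mRpL19 had cut effects of 0.51 and 0.41 at 24 h anterior, and of 0.54 and 0.41 at 24 h posterior, all 4 past the threshold. The anterior 24 h values of mRpL13 were -0.013, 0.17 and -0.070 in cut, -0.54, -0.43 and -0.46 in uncut and 0.37, 0.14 and 0.37 in uncultured regions. Those of mRpL19 were -0.14, 0.15 and -0.064 in cut, -0.47, -0.48 and -0.34 in uncut and 0.42, 0.087 and 0.19 in uncultured regions. In both genes the uncut arrays were the lowest 3.

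mRpL32, a protein that an m-AAA protease processes before it joins the ribosome in yeast and mouse, and mRpL36 passed all 8 comparisons. mRpL36 had 0.097, 0.22 and -0.068 in cut, -0.58, -0.50 and -0.56 in uncut and 0.58, 0.32 and 0.56 in uncultured anterior regions at 24 h. Cut replicates did not reach the uncut ones. mRpL32 had 0.13, 0.17 and -0.051 in cut, -0.42, -0.61 and -0.63 in uncut and 0.66, 0.33 and 0.49 in uncultured regions. The cut effects of mRpL36 lay between 0.44 and 0.63 and those of mRpL32 between 0.38 and 0.64. mRpL21 had 0.12, 0.28 and -0.26 in cut, -0.57, -0.44 and -0.46 in uncut and 0.67, 0.15 and 0.52 in uncultured anterior regions, and its cut effect passed at 12 h posterior (0.49) and 24 h anterior (0.53). mRpL9 and mRpL35, listed for culture only, were higher in cut regions at 24 h anterior alone among the cut comparisons, by 0.49 and 0.69 (adjusted p 0.0152 and 0.00252).

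Of the 14 members with numbers above the bacterial range, 13 had a positive cut effect at 24 h anterior, and mRpS28, described last, had a negative one. mRpL51 had the second largest mean cut effect of the 41 listed genes and, among them, the lowest overall adjusted p in the authors' deposited table of cut comparisons (1.37e-08). Its anterior values were 0.37, 0.40 and 0.34 in cut and -0.051, -0.28 and -0.30 in uncut samples at 12 h, 0.075, 0.27 and -0.017 in cut and -0.70, -0.60 and -0.62 in uncut samples at 24 h, and 0.42, 0.20 and 0.62 in uncultured samples. Posterior values were 0.28, 0.13 and 0.22 in cut and -0.30, -0.48 and -0.42 in uncut samples at 12 h, 0.34, 0.11 and 0.23 in cut and -0.45, -0.39 and -0.40 in uncut samples at 24 h, and 0.33, 0.31 and 0.36 in uncultured samples. Cut and uncut arrays were apart in all 4 comparisons, and cut arrays overlapped the uncultured ones except at 12 h posterior. Its cut effect was 0.59 (0.39 to 0.78), 0.62 (0.42 to 0.81), 0.75 (0.55 to 0.94) and 0.64 (0.44 to 0.84) for the anterior and posterior regions at 12 h and then at 24 h. The adjusted p lay between 1.95e-05 and 0.000356, and all 4 calls held whichever array was left out. Against uncultured regions, cut regions differed by -0.042, -0.12, -0.31 and -0.11, the third alone past the threshold (adjusted p 0.0321).

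mRpL41, mRpL42, mRpL44, mRpL52, mRpL54 and mRpL55 were listed in both tables. mRpL55 had 0.22, 0.11 and -0.23 in cut, -0.85, -0.73 and -0.93 in uncut and 0.54, 0.56 and 1.13 in uncultured anterior regions at 24 h. mRpL52 had 0.30, 0.24 and -0.029 in cut, -0.83, -0.66 and -0.63 in uncut and 0.78, 0.29 and 0.95 in uncultured regions. Uncut arrays of both genes were the lowest, and uncultured ones spread widely. Culture for 24 h gave -1.58 and -1.38 in the anterior region, the value of mRpL55 being the second lowest of the 41 listed genes. mRpL41 had 0.12, 0.19 and -0.0036 in cut, -0.42, -0.45 and -0.48 in uncut and 0.62, 0.46 and 0.66 in uncultured anterior regions, 3 groups without overlap. mRpL44, whose human relative has a fold like that of the RNA-cutting enzyme RNase III, had 0.065, 0.11 and -0.12 in cut, -0.41, -0.38 and -0.51 in uncut and 0.53, 0.15 and 0.50 in uncultured regions. mRpL54 had 0.14, 0.26 and 0.11 in cut, -0.37, -0.45 and -0.37 in uncut and 0.29, 0.31 and 0.65 in uncultured regions, with the uncut arrays apart from the rest. mRpL42 had 0.066, 0.13 and 0.15 in cut, -0.49, -0.34 and -0.32 in uncut and 0.33, 0.23 and 0.33 in uncultured regions. In all 4 genes the uncut arrays were again the lowest 3. At 24 h posterior the cut effect passed for mRpL55 (0.56), mRpL44 (0.46) and mRpL42 (0.26), and was 0.37, 0.23 and 0.29 for mRpL52, mRpL41 and mRpL54, which did not pass.

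Of mRpL43, mRpL47 (a relative of bacterial L29) and mRpL50, listed for culture only, mRpL50 was higher in cut regions at 24 h in both regions (0.51 and 0.42) and mRpL47 at 24 h anterior (0.38), while mRpL43 did not pass in any cut comparison (-0.051 to 0.31). mRpL47 had a second probe set in the table, whose cut effects were 0.35 anterior and 0.22 posterior at 24 h, neither past the threshold (adjusted p 0.136 and 0.437). Both probe sets had the same direction in all 8 comparisons, and both were lower after 24 h of culture (-0.57 and -0.53 in the anterior region).

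In the small subunit, mRpS33, a protein of mitochondrial ribosomes only, had the largest mean effect of the 41 listed genes in both sets of comparisons. In the anterior region its values were 0.36, 0.24 and 0.016 in cut and -0.0083, -0.32 and -0.44 in uncut samples at 12 h, 0.35, 0.22 and -0.11 in cut and -0.97, -0.86 and -0.98 in uncut samples at 24 h, and 0.68, 0.46 and 0.98 in uncultured samples. Its posterior values were 0.40, 0.18 and 0.19 in cut and -0.37, -0.42 and -0.46 in uncut samples at 12 h, 0.50, 0.016 and 0.18 in cut and -0.47, -0.54 and -0.52 in uncut samples at 24 h, and 0.62, 0.61 and 0.48 in uncultured samples. All cut arrays lay above all uncut arrays of the same region and time. The cut effect was 0.46 (0.18 to 0.74), 0.68 (0.40 to 0.96), 1.09 (0.81 to 1.37) and 0.74 (0.46 to 1.02) for the anterior and posterior regions at 12 h and then at 24 h. As ratios these are 1.38, 1.60, 2.13 and 1.67, with adjusted p from 1.61e-05 to 0.0326. The call at 12 h anterior was lost without cut replicate 1 (0.38) or 2 (0.44), or uncut replicate 2 (0.43) or 3 (0.37), and the other 3 calls held whichever array was left out. Uncut regions after 24 h of culture had 0.321 (anterior, adjusted p 1.29e-09) and 0.473 (posterior, adjusted p 1.11e-06) of the uncultured value.

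mRpS35, likewise numbered above the bacterial range, was higher in cut regions in all 4 comparisons. Its anterior values were 0.44, 0.26 and 0.092 in cut and -0.016, -0.29 and -0.33 in uncut samples at 12 h, 0.18, 0.35 and 0.090 in cut and -0.52, -0.67 and -0.63 in uncut samples at 24 h, and 0.42, 0.24 and 0.40 in uncultured samples. Its posterior values were 0.38, 0.15 and 0.10 in cut and -0.39, -0.40 and -0.39 in uncut samples at 12 h, 0.46, 0.27 and 0.030 in cut and -0.35, -0.31 and -0.30 in uncut samples at 24 h, and 0.25, 0.29 and 0.20 in uncultured samples. Uncut arrays were the lowest 3 at each time and region, and cut arrays overlapped uncultured ones in both regions. The cut effect was 0.47, 0.60, 0.81 and 0.57 in anterior and posterior regions at 12 h and then at 24 h, each past the threshold whichever array was left out (adjusted p 2.75e-05 to 0.00462 with all arrays). Cut minus uncultured differences lay between -0.15 (-0.37 to 0.067) and 0.0054 (-0.21 to 0.22), none past the threshold.

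mRpS24, a relative of bacterial S3, was the one member listed in the table of cut comparisons alone. Its anterior values were 0.23, 0.37 and 0.14 in cut and -0.019, -0.098 and -0.14 in uncut samples at 12 h, 0.17, 0.086 and 0.10 in cut and -0.18, -0.27 and -0.19 in uncut samples at 24 h, and 0.23, 0.019 and 0.16 in uncultured samples. Posterior values were 0.15, 0.015 and 0.088 in cut and -0.041, -0.14 and -0.16 in uncut samples at 12 h, 0.16, 0.079 and -0.011 in cut and -0.13, -0.35 and -0.26 in uncut samples at 24 h, and 0.0031, -0.040 and 0.033 in uncultured samples. Cut arrays lay above uncut ones throughout, and around the uncultured values. The cut effect was 0.33, 0.20, 0.33 and 0.33 in anterior and posterior regions at 12 h and then at 24 h, past the threshold except at 12 h posterior (adjusted p 0.167). Culture gave -0.35 anterior and -0.25 posterior at 24 h (adjusted p 0.00110 and 0.0206). The posterior call was lost without uncultured replicate 1 (-0.25) or 3 (-0.23), or uncut replicate 2 (-0.20) or 3 (-0.24), and the cut call at 12 h anterior without cut replicate 2 (0.27).

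mRpS9, whose bacterial relative reaches towards the tRNA between the subunits, had negative cut effects at 12 h. Its anterior values were 0.21, -0.011 and -0.11 in cut and 0.29, 0.19 and 0.20 in uncut samples at 12 h, -0.065, -0.061 and 0.0079 in cut and -0.29, -0.51 and -0.12 in uncut samples at 24 h, and 0.31, -0.11 and 0.40 in uncultured samples. Its posterior values were -0.16, -0.33 and -0.19 in cut and 0.10, 0.077 and -0.0054 in uncut samples at 12 h, 0.36, -0.0070 and -0.027 in cut and -0.24, -0.17 and -0.18 in uncut samples at 24 h, and 0.19, 0.10 and 0.15 in uncultured samples. At 12 h posterior all cut arrays lay below all uncut ones, and at 24 h they lay above them in both regions. None of its 4 cut effects (-0.20, -0.28, 0.27 and 0.30, anterior and posterior at 12 h and then at 24 h) passed, with adjusted p from 0.107 to 0.344. Culture gave 0.030 and -0.089 at 12 h and -0.50 and -0.34 at 24 h, anterior and posterior, the last 2 past the threshold. The posterior one was lost whichever of its 6 arrays was left out (-0.37 to -0.32).

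The 3 fly relatives of bacterial S18, which in human mitochondria occupy different sites of the ribosome, were all lower after 24 h of culture in both regions, and the largest effects were those of mRpS18C. It had 0.077, 0.15 and 0.0086 in cut, -0.72, -0.51 and -0.70 in uncut and 0.51, 0.27 and 0.95 in uncultured anterior regions at 24 h, with uncut arrays below all others. Its cut effect passed in all 4 comparisons, from 0.46 to 0.72. mRpS18A and mRpS18B, listed for culture only, passed at 24 h anterior (0.43 and 0.35, adjusted p 0.0311 and 0.0209) and in no other cut comparison. Their difference from mRpS18C was not tested. All 3 relatives were counted above with the small subunit by their symbols alone.

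mRpS14, mRpS16 and mRpS17 are named after bacterial proteins of the small subunit and were listed in both tables. At 24 h anterior mRpS14 had 0.17, 0.21 and 0.22 in cut, -0.47, -0.45 and -0.46 in uncut and 0.62, 0.063 and 0.51 in uncultured regions. mRpS16 had 0.15, 0.23 and 0.023 in cut, -0.31, -0.56 and -0.48 in uncut and 0.75, 0.29 and 0.17 in uncultured regions, and mRpS17 had -0.014, 0.21 and -0.0079 in cut, -0.39, -0.62 and -0.41 in uncut and 0.20, -0.023 and 0.51 in uncultured ones. In each gene the uncut arrays lay below all cut and uncultured arrays. The cut effects there were 0.66, 0.59 and 0.54 (adjusted p 0.000935, 0.00143 and 0.00301). mRpS6 and mRpS21 were listed for culture only. mRpS21 was higher in cut regions at 24 h anterior (0.44, adjusted p 0.00393) and had -0.029 at 24 h posterior, and mRpS6 passed in no cut comparison (0.064 to 0.45).

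mRpS28 ran against most of the other 40 genes, though 5 of these also had a negative cut effect at 12 h anterior. Its anterior values were -0.081, 0.020 and -0.28 in cut and 0.25, 0.27 and 0.45 in uncut samples at 12 h, -0.19, -0.015 and 0.15 in cut and 0.32, 0.27 and 0.24 in uncut samples at 24 h, and -0.19, -0.26 and -0.060 in uncultured samples. Its posterior values were -0.28, -0.34 and -0.36 in cut and 0.39, 0.55 and 0.21 in uncut samples at 12 h, 0.081, -0.26 and -0.14 in cut and 0.067, 0.20 and 0.11 in uncut samples at 24 h, and -0.32, -0.46 and -0.36 in uncultured samples. Uncut cultured arrays lay above all uncultured arrays of their region, and above all cut arrays of the same time except at 24 h posterior. The cut effect was -0.44 (-0.65 to -0.23), -0.71 (-0.92 to -0.50), -0.30 (-0.51 to -0.084) and -0.23 (-0.45 to -0.022) in anterior and posterior regions at 12 h and then at 24 h, with adjusted p of 0.00680, 0.000199, 0.0763 and 0.178. The culture effect was 0.50, 0.76, 0.45 and 0.50 in the same order, with adjusted p from 4.13e-06 to 0.00136, and these 4 calls held whichever array was left out. The cut effect at 12 h anterior did not pass without cut replicate 3 (-0.36) or uncut replicate 3 (-0.37), and that at 24 h anterior passed only without cut replicate 3 (-0.38). In RefSeq mRpS28 overlaps another gene, CG10927, as 26 of the 41 members overlap some gene, and the files do not give the bases that a probe set matches.

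**Figure D5:**
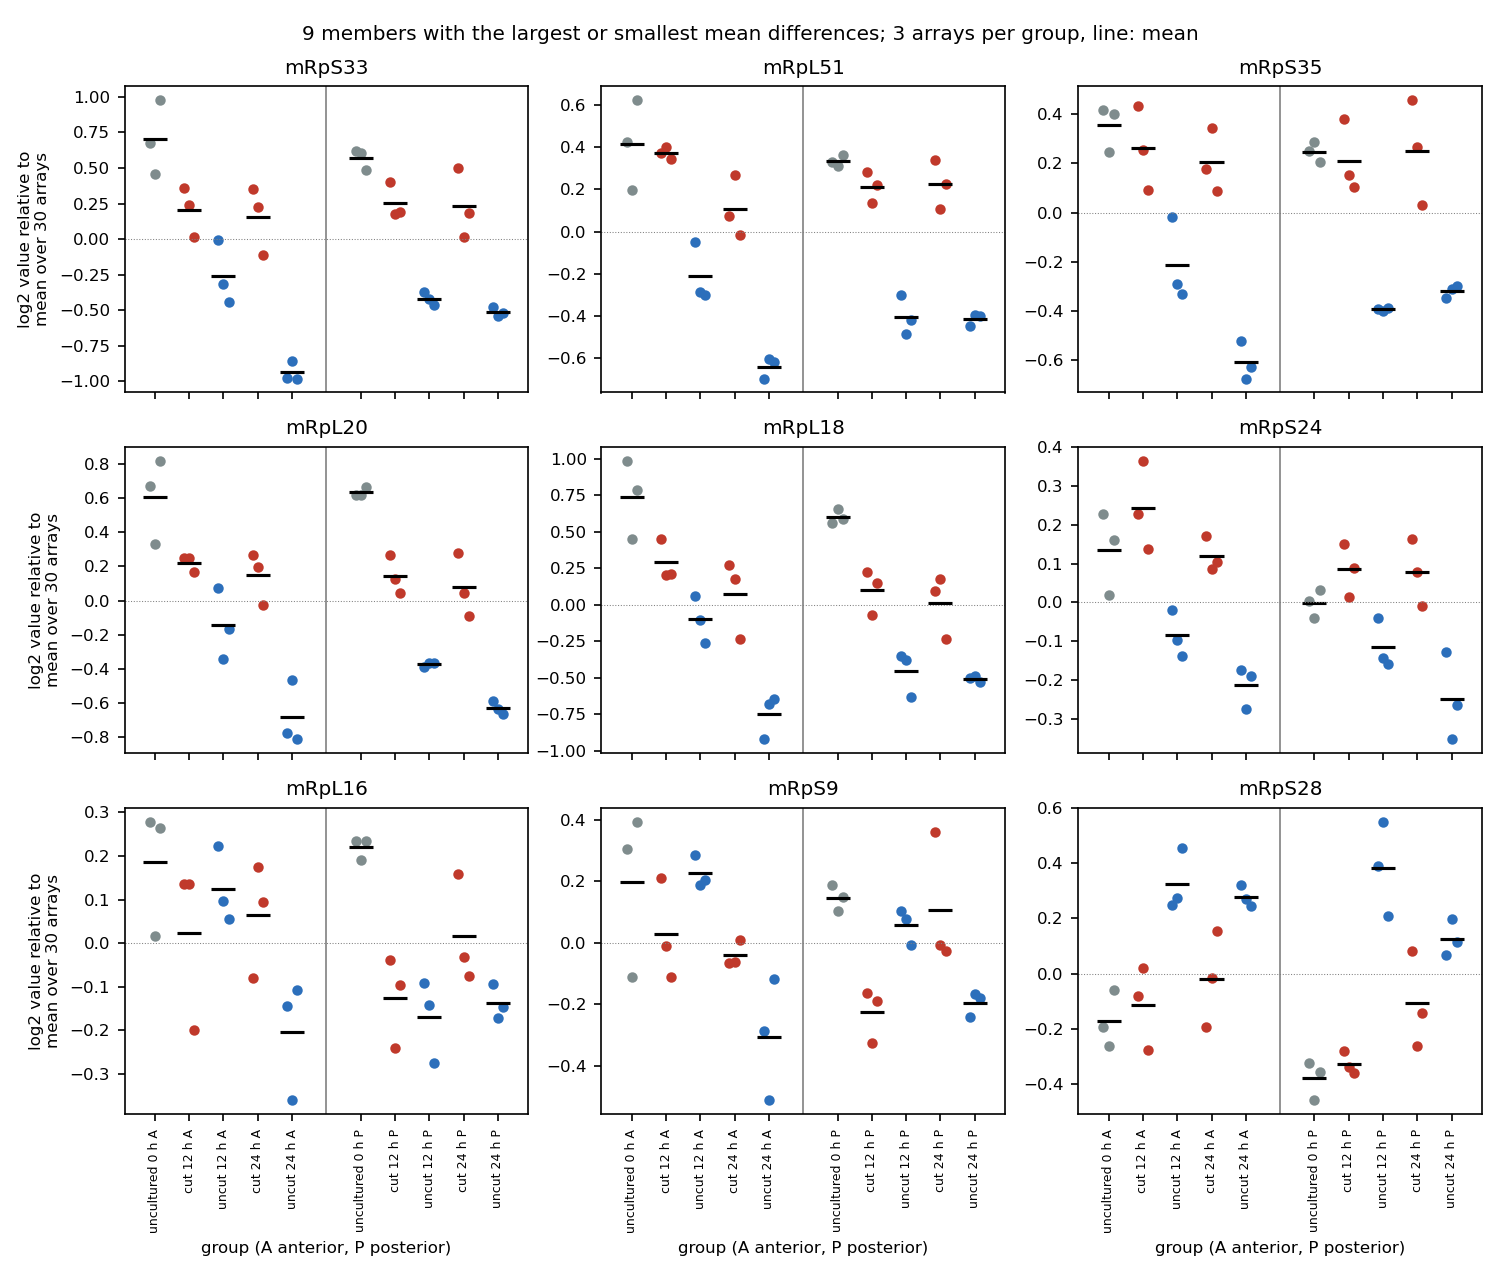
Log2 values on each array, relative to the mean of the probe set, for the 9 genes with the largest or smallest mean differences, by group (uncultured, cut 12 h, uncut 12 h, cut 24 h, uncut 24 h; A anterior, P posterior). Points are arrays, lines group means, and each panel has its own y axis. mRpS33 spans about 2 log2 units, and mRpS28 is the panel in which uncut cultured arrays are highest.

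Genes of mitochondrial gene expression outside the ribosome did not all share this course. Of 9 mitochondrial translation factors 3 were listed, and none passed in a cut comparison. After 24 h of culture mIF3 (initiation) had -0.37 and -0.85 and mRRF1 (ribosome recycling) -0.48 and -0.63, anterior and posterior, while mEFTu2, a relative of the elongation factor that brings tRNA, had 0.77 and 0.83, all 6 past the threshold. Of 20 mitochondrial tRNA synthetases and tRNA enzymes 2 were listed. TyrRS-m, which loads tyrosine, was higher in cut regions at 12 h anterior (0.46), 24 h anterior (0.41) and 24 h posterior (0.69), and LeuRS-m, which loads leucine, at 12 h posterior (0.42). Of 17 genes of mitochondrial DNA and RNA 5 were listed. mtDNA-helicase, which unwinds mitochondrial DNA, and PolrMT, the RNA polymerase, were higher in uncut regions after 24 h of culture, by 1.14 and 0.58 anterior and 1.31 and 0.83 posterior. The RNA helicase Suv3 (-0.84 and -0.56) and the transcription factor mtTFB2 (-0.44 and -0.63) were lower, like the ribosomal proteins. Both were higher in cut regions at 24 h posterior (0.34 and 0.39). The fifth, mtSSB, which binds single-stranded mitochondrial DNA, was higher in cut regions at 24 h anterior (0.57) and lower there after 24 h of culture (-0.59), and was named after its values were seen. At 24 h anterior 2 of these 5 genes were higher in cut regions, mtSSB among them, and 0 lower.

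Genes named for the cytosolic ribosome were counted in the same comparisons. Of 93 such genes, symbols ending in -like included, 18 were listed. In cut regions 12 were lower and 1 higher at 12 h anterior (median -0.53), 9 were lower and 1 higher at 12 h posterior (median -0.40), 1 was lower and 4 higher at 24 h anterior (median 0.20), and 2 were lower and 2 higher at 24 h posterior (median -0.082). Of all probe sets 5.69%, 3.04%, 3.03% and 5.04% were lower and 3.15%, 2.01%, 5.59% and 4.81% higher in these 4 comparisons. After culture of uncut discs 10 were higher and 1 lower at 12 h anterior, 8 higher and 2 lower at 12 h posterior, 4 higher and 6 lower at 24 h anterior, and 12 higher and 2 lower at 24 h posterior. The shares of all probe sets there were 9.51%, 10.5%, 14% and 14.6% higher and 6.29%, 9.76%, 18.1% and 9.56% lower. At 12 h the listed mitochondrial genes had medians of the opposite sign in both sets of comparisons (0.20 and 0.34 for the cut, -0.41 and -0.63 for culture). The difference between the 2 families was not tested, and both lists hold only genes that the authors' threshold let through.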

How the data were processed

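Messenger RNA of 30 samples was amplified in 2 cycles and hybridised to Affymetrix arrays, per the labels' protocols. The submitters' processing notes name RMA and limma without versions; chip definition and genome build are not given in the sources used here. The authors deposited log2 values centred on the mean of each probe set over all arrays, so no filter on dim probe sets was possible, and 2 tables with log2 differences and an overall adjusted p-value for 4 comparisons each, cut at 0.001. Recomputed differences equalled the deposited ones within 1.6e-08.

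Groups came from the labels. A limma 3.58.1 model (R 4.3.3) with 1 mean per group was fitted to 18769 of 18952 probe sets, leaving out 183 control probe sets, with 20 residual and 5.257 prior degrees of freedom. The p-values of each contrast were adjusted over all of these (Benjamini-Hochberg). With 3 against 3 arrays an exact permutation test could not give a p below 0.1, so none was used. The code was tested on simulated data. Replicates are titled as biological, with no animal or culture named, so p-values measure the spread between these samples. Same-numbered arrays did not deviate together throughout (no comparison had all 3 pairs with a correlation over 0.1), so the numbers were not taken as pairs.

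All listed members are named, but only listed probe sets carry a gene name here. For mRpL47 the probe set whose identifier ends in a plain _at was used, not the one ending in _a_at. The one used also had the lower overall p in the culture table, but was not chosen by it. Values on every array were to be printed for members listed in both tables and for the 3 members with the highest and the 3 with the lowest mean difference over the 4 cut and over the 4 culture comparisons. They are printed for the 9 members chosen by difference, and for the rest in part, with all in the heat map. List genes were named where past the threshold, at most 4 per list. Alternatives were other normalizations, a replicate block, other variance settings, fewer groups, a minimum fold and leaving out each array. Members and lists were chosen with earlier results of these data known.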

Additional observations from a re-analysis of the deposited data

Results flagged for a closer look

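Effects that differed between the culture times are given again here, since the 24 h minus 12 h difference was tested directly. In the anterior region the cut effect was larger at 24 h than at 12 h for 2 genes, mRpL14 by 0.70 (limma adjusted p 0.0267) and mRpS21 by 0.52 (adjusted p 0.0440). The count was 5 without cut 12 h replicate 1 and 4 without cut 24 h replicate 3. It was 1 without uncut 12 h replicate 2 or uncut 24 h replicate 1 or 3. It was 0 without cut 12 h replicate 2 or 3, cut 24 h replicate 1 or 2, uncut 12 h replicate 1 or uncut 24 h replicate 2. The same uncut arrays gave a 24 h minus 12 h difference in anterior regions that passed for 19 genes, all negative. It was -0.77 for mRpL55, -0.68 for mRpS33, -0.65 for mRpL18 and for mRpL52, -0.59 for mRpL14, -0.55 for mRpL17, -0.54 for mRpL20, -0.53 for mRpS9 and -0.51 for mRpL32. For mRpL36 it was -0.48, for mRpL11 and mRpL27 -0.44, for mRpL51 -0.43, for mRpL19 and mRpS35 -0.40, for mRpL42 -0.38, for mRpS21 and mRpL41 -0.37 and for mRpS18B -0.36. The 19 became 0 without uncut 12 h anterior replicate 1, whose mean over the 40 genes was 0.11, above the other two arrays of its group at -0.11 and -0.15. Groups of 3 arrays were not tested for outlying samples.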

How the results depend on the processing

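In 3936 refits of single members and comparisons, 3645 stayed on their side of the threshold, 234 lost the call and 57 gained it. No value of a member changed sign where it or its alternative was past the threshold. For members other than mRpL47 the sign could change only without 1 array (1968 refits), with median centring (328) or with quantile normalization (328). Other variance settings, fewer groups and a replicate block leave the difference itself unchanged, and averaging probe sets alters mRpL47 alone. The mean of both mRpL47 probe sets and eBayes with trend and robust settings moved no count by over 1.5 times. Where a fold of at least 1.5 was also required, genes higher in cut regions numbered 1 and 4 at 12 h and 16 and 3 at 24 h (anterior, posterior; 1.68%, 0.842%, 2.41% and 2.64% of all probe sets) and genes lower 0 at 12 h anterior. After culture those lower numbered 10 and 21 at 12 h and 33 and 22 at 24 h (1.55%, 4.61%, 6.06% and 4.26% of all probe sets), and mRpS28 passed at 12 h posterior alone, with 0 higher elsewhere. Of cut against uncultured regions 1, 0, 2 and 1 stayed lower, and 5 and 1 genes differed between times in uncut anterior regions and in the anterior cut effect. With only the groups of a comparison fitted, which leaves fewer samples, 4 genes were higher in cut regions at 12 h anterior and 14 at 24 h posterior, 13 were lower after culture at 12 h anterior, 2, 21 and 1 were lower in cut than uncultured regions at 12 h anterior, 12 h posterior and 24 h anterior, and the counts between times were 2 and 1. After quantile normalization 25 genes were higher and 2 lower in cut regions at 12 h posterior, 4, 3, 3 and 5 were lower in cut than uncultured regions, the counts between times were 6 in uncut anterior regions and 1 for the posterior cut effect, and the change between times differed between regions for 2 genes. Median centring called 1 gene higher in cut than uncultured regions at 24 h posterior and 1 lower in cut than uncut ones at 24 h anterior. The cause of these moves was not tested. Apart from the 1.5-fold shares given above, the shares of all probe sets called in these refits, and in those without 1 array, were not computed. A count that moved therefore cannot be set against the whole array. With the replicate number as a block the change between times differed between regions for 1 gene against 0 without it, and no other count moved by over 1.5 times. Same-numbered arrays correlated best with each other for 0 to 5 of 6 arrays.

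Leaving out 1 array at a time gave 4 to 11 and 4 to 13 genes higher in cut regions at 12 h, and 26 to 37 and 12 to 23 at 24 h (anterior, posterior), with 0 to 1 lower in anterior regions at either time. After culture 18 to 35 genes were lower at 12 h anterior. Of cut against uncultured regions 3 to 14 and 0 to 11 were lower at 12 h, 3 to 22 and 5 to 16 at 24 h, and 0 to 1 higher at 24 h posterior. Between times the counts were 0 to 20 in uncut anterior regions and 0 to 5 for the anterior cut effect, and 0 to 1 for the difference between regions. A filter on dim probe sets and a choice of probe sets by mean signal were not run, since centred values hold no level, and signal over background is unknown here.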
